A study of Mus musculus with 15 samples.

Results

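Peripheral T cell lymphomas of the mouse were compared with T cells activated in culture, using 12 of the 15 samples of the series. These were the 9 lymphomas (mPTCL 1 to 9) and the 3 samples of activated normal T cells, chosen by their labels, and the 3 samples of resting T cells took no part in the tests. The lymphomas arose in C57BL/6 mice without CD3 that had been given p53-null T cells of the same strain, and the lymphoma cells were sorted from liver. Mice without CD3 lack T cells of their own but keep B cells, natural killer (NK) cells and myeloid cells. The activated T cells came from p53-null C57Bl/6 donors aged 5 weeks and were stimulated in vitro. The sources used here give neither the stimulus nor its duration. The normal T cells were sorted from liver or spleen, and which organ each came from is not stated. Their protocol also mentions injections of saline or killed pneumococci every 2 weeks, without saying whether these donors received them. Both groups therefore lacked p53, a transcription factor that halts or kills damaged cells, and a difference between the groups is not a difference in p53. Whether the samples of a group came from separate animals is not labelled, so the p-values reflect the spread of these samples alone, part of which may be technical.

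A T cell recognises antigen through the T cell receptor, which signals through the CD3 chains, the kinases Lck and Zap70 and the coreceptors CD4 or CD8. Activation makes the cell grow, divide and take up glucose for glycolysis, and cytokine receptors that signal through JAK kinases and STAT factors sustain it. NK cells read germline-encoded receptors instead, several of which signal through the adaptors Tyrobp and Fcer1g and the kinase Syk, and some mature T cells share these receptors. Peripheral T cell lymphomas are tumours of mature T cells. The comparison with activated T cells sets these tumours beside normal T cells that are also dividing.

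Expression was read on 1 oligonucleotide array per sample as MAS5 signal, a linear intensity computed by the authors, and values are given here as log2 of the signal, with 32 as the floor (5 on the log2 scale). All arrays had the same 2% trimmed mean, 500. The median signal was 110 to 118 in the activated arrays and 68.0 to 116 in the lymphomas. The actin probe sets at the 3′ end gave more signal than those at the 5′ end, a ratio that rises as RNA degrades, by 1.49 to 1.54 in activated and 1.47 to 2.65 times in lymphoma arrays, and for Gapdh by 1.26 to 1.36 and 1.26 to 2.10. Added poly-A control RNAs read 9.24 to 9.55 in the activated arrays and 7.37 to 8.21 in the lymphomas. No batch is labelled, and the labels name a software version for the lymphomas alone and an amplification kit for the normal cells alone, so group and processing cannot be told apart. The small number of arrays limits the precision. T cell markers were present in both groups: the mean of 11 markers was 12.33 to 12.41 in activated cells and 8.47 to 11.22 in lymphomas, where Cd3e was at or near the floor in mPTCL 3 (5.68) and mPTCL 4 (5.00). Markers of other cells stood out in some lymphomas. The mean of 14 neutrophil markers was 9.60 to 11.54 in mPTCL 1, 2, 4, 5 and 8, against 5.96 to 7.68 in the other 4 and 5.64 to 5.86 in activated cells. The mean of 18 B cell markers was 11.47, 10.52 and 12.47 in mPTCL 1, 4 and 5, against 7.58 to 9.34 in activated cells. In bulk samples, fewer cells of a type and less RNA per cell cannot be told apart.

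The lymphomas differed from activated T cells in 1824 of 11902 genes tested (15.3%), of which 838 (7.04%) were higher and 986 (8.28%) lower. Calls needed an adjusted p under 0.05 (limma, Benjamini-Hochberg) and a change of at least 2-fold. Differences are lymphoma minus activated on the log2 scale, ± standard error. All 9 lymphomas lay above the 3 activated samples for 1164 genes (9.78%) and below them for 1471 (12.4%). The counts of each list below stand against these shares over all genes. Among called genes, 1558 (85.4%) had no overlap between the groups. The median difference over all genes tested was -0.08. Lymphomas varied far more among themselves than the activated samples did, with a median SD per gene of 0.603 against 0.190, and the lymphoma SD was the larger for 11029 genes (92.7%). With each gene represented by the mean of its probe sets instead of its brightest one, 573 genes were higher and 1125 lower. With any 1 activated sample left out, which leaves 2 controls, 916 to 928 genes were called, so the adjusted p without 1 activated sample is given beside the called genes described below whose call then ended.

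**Figure D1:**
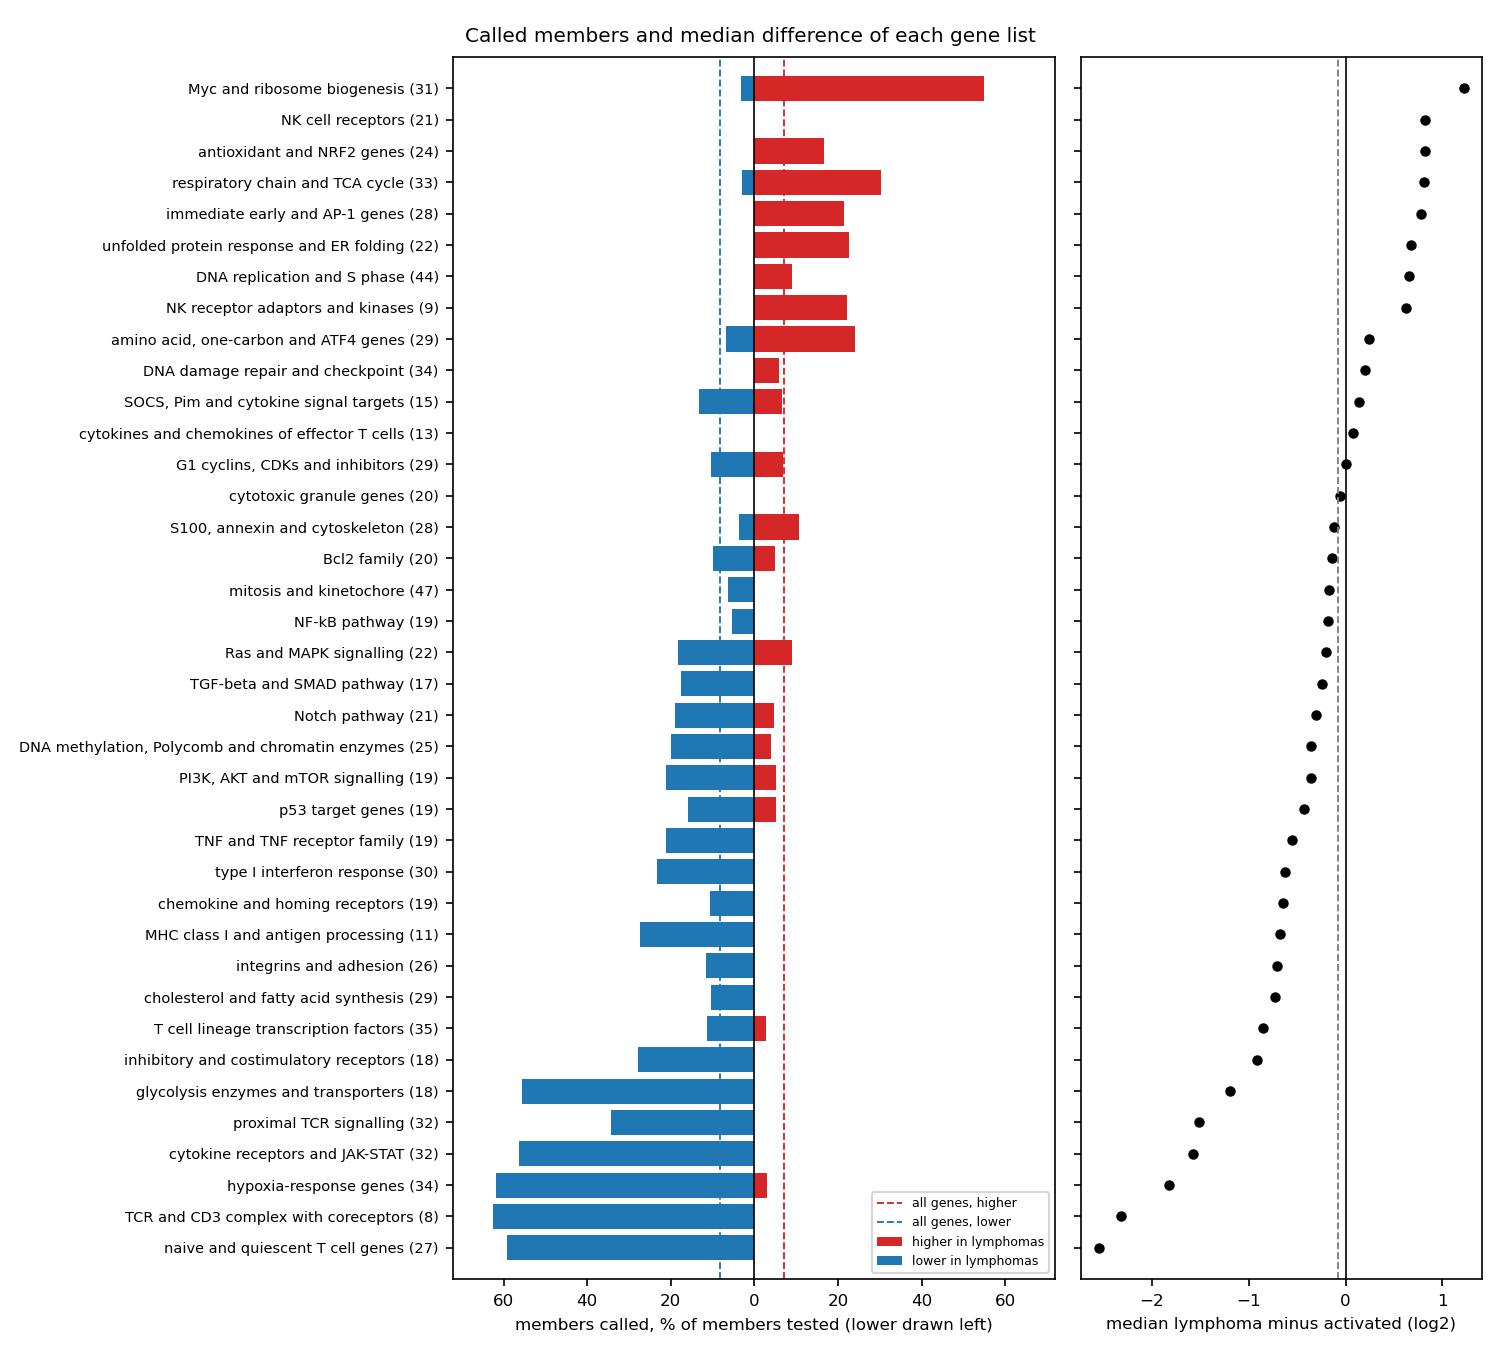
Share of tested members of 38 gene lists that were higher (right, red) or lower (left, blue) in lymphomas than in activated T cells, with the number tested in brackets and dashed lines at the shares over all genes (7.04% and 8.28%). The right panel gives the median log2 difference of each list, with a dashed line at the median over all genes (-0.08); Myc and ribosome biogenesis has the highest median and the naive T cell list the lowest.

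The antigen receptor machinery was lower in the lymphomas. In the list of the CD3 complex and coreceptors, 5 of 8 tested members fell and 0 rose (median -2.32). Cd8b1, the beta chain of the CD8 coreceptor, read 12.82, 12.66 and 12.73 in the 3 activated samples and from 5.00 to 9.52 (median 5.77) in the lymphomas. It was at least 70.2-fold lower (-6.13 ± 0.81, adjusted p = 0.000584), and no lymphoma reached the activated samples. Cd8a, the alpha chain, read 13.71, 13.48 and 13.49 in the 3 activated samples and from 7.91 to 13.13 (median 8.60) in the lymphomas, with mPTCL 9 (13.13) just under the activated samples (-3.95 ± 0.92, adjusted p = 0.0106). Cd4 read 11.14, 11.08 and 11.01 in the 3 activated samples and from 5.00 to 10.50 (median 6.13) in the lymphomas, and mPTCL 4, 7, 8 and 9 were at the floor, while mPTCL 2 (10.50) and 6 (10.15) were closest to the activated level. Cd4 was at least 15.4-fold lower (-3.94 ± 1.25, adjusted p = 0.0399). The signalling chains Cd3d (-2.56 ± 0.70, adjusted p = 0.0212) and Cd247, the zeta chain (-2.07 ± 0.69, adjusted p = 0.0493), were lower in all 9 lymphomas. Cd3e, by contrast, read 11.04, 11.11 and 11.40 in the 3 activated samples and from 5.00 to 12.28 (median 10.91) in the lymphomas and was not called (-1.43 ± 1.39, adjusted p = 0.482). Its values lay between 9.03 and 12.28 in the 7 lymphomas other than mPTCL 3 and 4. Without mPTCL 3 and 4 the Cd3e difference was -0.17 with an adjusted p of 0.831. Leaving out 1 activated sample gave adjusted p of 0.0497 to 0.0541 for Cd8a, 0.123 to 0.129 for Cd4, 0.0787 to 0.0845 for Cd3d and 0.126 to 0.162 for Cd247. The calls also ended for Cd4 without mPTCL 3, 7, 8 or 9 (adjusted p up to 0.0596) and Cd247 without mPTCL 1, 2, 4, 6, 7, 8 or 9 (adjusted p up to 0.0704), and Cd4 was -3.49 with an adjusted p of 0.065 without mPTCL 3 and 4. Without mPTCL 1, 2, 4, 5 and 8, where neutrophil markers were high, Cd8a was -3.66 with an adjusted p of 0.0629 and Cd3d -2.16 with an adjusted p of 0.0549. The list had 1 to 2 lower calls without 1 activated sample and 3 without those 5 lymphomas.

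Of 32 genes of proximal T cell receptor signalling, 11 fell (34.4%, against 8.28% of all genes) and 0 rose (median -1.51). All 9 lymphomas were below the activated samples for 18 of the 32, against 12.4% of all genes. Cd5, a surface receptor that damps antigen receptor signals, read 12.43, 12.32 and 12.18 in the 3 activated samples and from 5.69 to 10.02 (median 7.04) in the lymphomas, which made it 37.6-fold lower (-5.23 ± 0.73, adjusted p = 0.00077). The highest lymphoma was mPTCL 3 (10.02), still below every control. Cd6, a related receptor, read 11.34, 11.57 and 11.22 in the 3 activated samples and from 5.00 to 8.44 (median 6.35) in the lymphomas and was at least 26.9-fold lower (-4.75 ± 0.78, adjusted p = 0.00192). Cd28, the main costimulatory receptor of T cells, read 12.99, 12.97 and 13.06 in the 3 activated samples and from 5.00 to 11.32 (median 7.78) in the lymphomas, from the floor in mPTCL 9 to 11.32 in mPTCL 7. It was at least 29.8-fold lower (-4.90 ± 0.96, adjusted p = 0.00436). Themis, an adaptor of receptor signalling, was 10.1-fold lower (-3.33 ± 0.78, adjusted p = 0.0108; 0.0507 to 0.0537 for Themis without 1 activated sample). The kinase Zap70 (-2.15 ± 1.11, adjusted p = 0.184) and the scaffold Lat (-1.30 ± 0.82, adjusted p = 0.276) were not called, although all 9 lymphomas were below the activated samples for Zap70 and 8 for Lat. Cd5, Cd6 and Cd28 kept their calls whichever single array was left out, and the list had 7 to 8 lower calls without 1 activated sample.

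**Figure D2:**
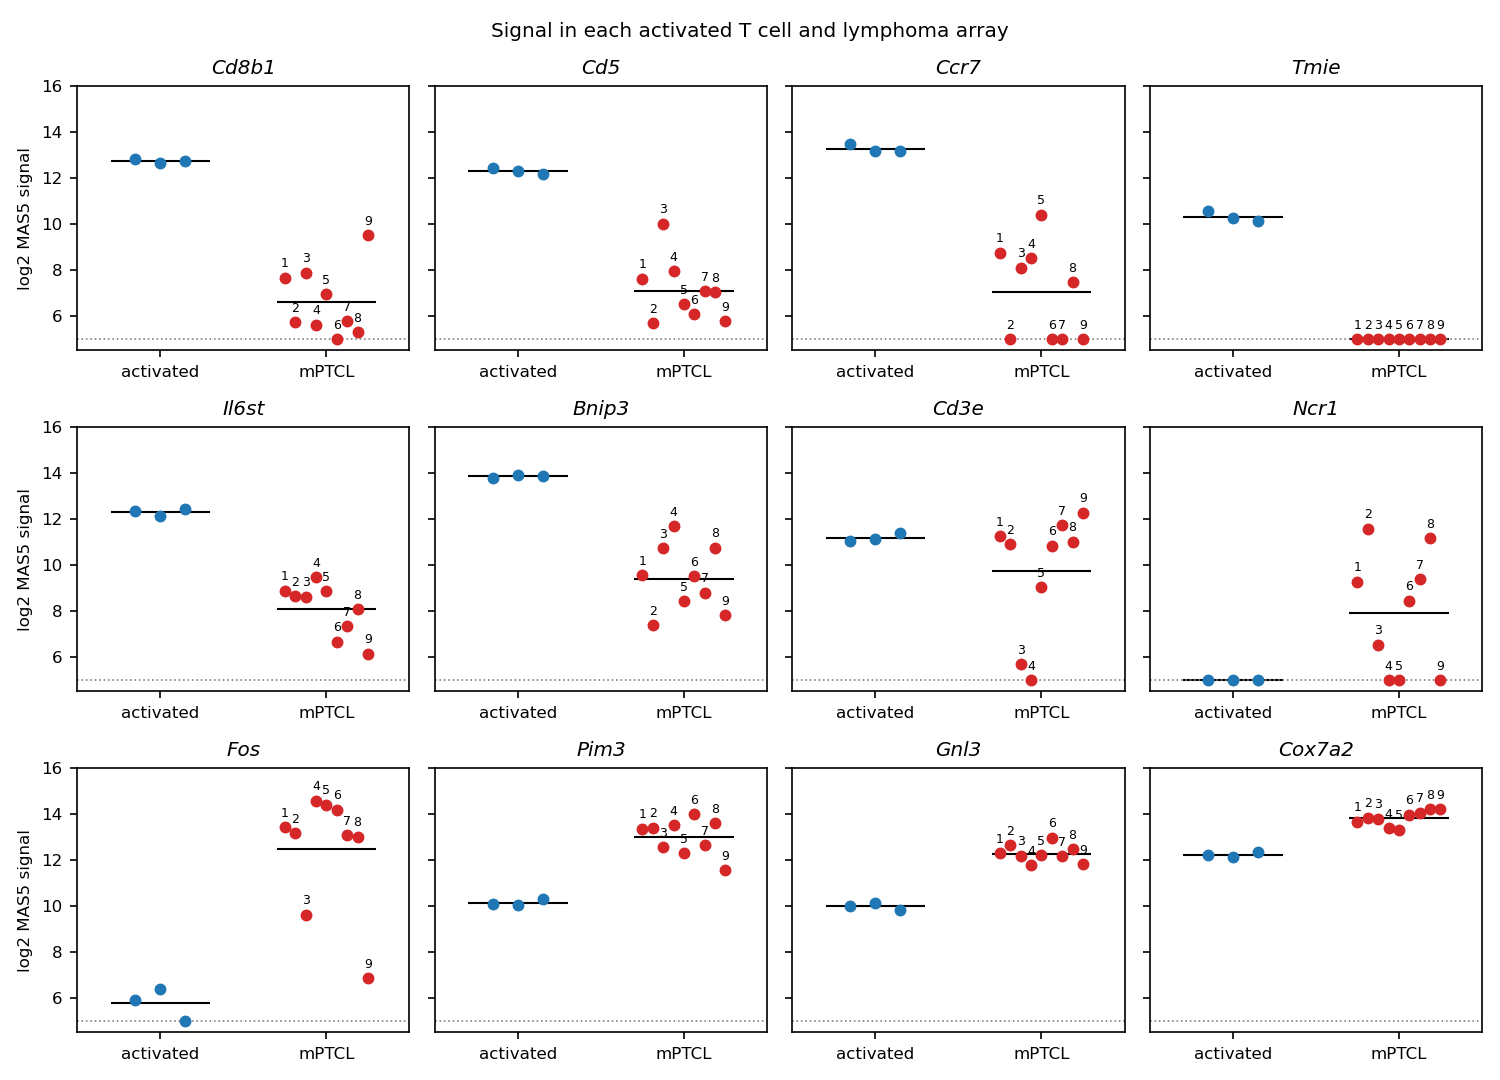
Log2 MAS5 signal of 12 genes in each activated T cell array (blue) and each lymphoma (red, numbered by mPTCL number), with lines at the group means and a dotted line at the floor of 5. Cd8b1, Cd5, Ccr7, Tmie, Il6st and Bnip3 are lower in all 9 lymphomas and Fos, Pim3, Gnl3 and Cox7a2 higher in all 9, whereas Cd3e is low in mPTCL 3 and 4 and Ncr1 is spread from 5.00 to 11.57.

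Genes of naive and quiescent T cells had the lowest median of the lists. Of 27 tested members 16 fell and 0 rose, with a median of -2.55, and the list mean was 11.98 to 12.29 in activated cells and 8.07 to 10.38 in lymphomas. Ccr7, the chemokine receptor that brings T cells to lymph nodes, read 13.48, 13.16 and 13.16 in the 3 activated samples and from 5.00 to 10.40 (median 7.47) in the lymphomas, with 4 lymphomas at the floor. It was at least 75.6-fold lower (-6.24 ± 1.09, adjusted p = 0.00248). Tmie read 10.57, 10.27 and 10.11 in the 3 activated samples and was at the floor in every lymphoma, at least 39.9-fold lower (-5.32 ± 0.24, adjusted p = 7.91e-08). Dapl1, also at the floor in all 9, was at least 41.1-fold lower (-5.36 ± 0.35, adjusted p = 1.98e-06), and Tdrp, at the floor in 6, was at least 46.6-fold lower (-5.54 ± 0.34, adjusted p = 1.23e-06). Lef1, a transcription factor of the Wnt pathway that marks naive T cells, read 13.71, 13.26 and 13.46 in the 3 activated samples and from 7.80 to 11.11 (median 10.13) in the lymphomas (-3.65 ± 0.61, adjusted p = 0.00195). For these 5 genes no lymphoma overlapped the activated samples and no single array ended the call. The list had 8 lower calls without 1 activated sample and 12 without mPTCL 1, 2, 4, 5 and 8.

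Among 35 transcription factors of the T cell lineages, 4 fell (11.4%, against 8.28% of all genes) and 1 rose (2.86%, against 7.04%), with a median of -0.85. Ets1, which supports T cell survival, was 3.45-fold lower (-1.79 ± 0.36, adjusted p = 0.00471) in all 9 lymphomas. Bcl11b, which fixes T cell identity, was lower (-2.75 ± 0.88, adjusted p = 0.0422), as were Gata3 (-2.04 ± 0.59, adjusted p = 0.0267) and Zbtb7b, the factor that directs the CD4 lineage (-2.39 ± 0.59, adjusted p = 0.0141). Id2, an inhibitor of E proteins that is high in effector T cells and NK cells, read 11.03, 11.71 and 11.16 in the 3 activated samples and from 12.04 to 14.28 (median 13.21) in the lymphomas and was higher in all 9 (1.75 ± 0.39, adjusted p = 0.00871), but with the mean of its probe sets the difference was 1.30 (adjusted p = 0.0992). Tbx21 (-0.72 ± 1.14, adjusted p = 0.681), Eomes (-0.88 ± 1.50, adjusted p = 0.707) and Zbtb16 (0.49 ± 0.80, adjusted p = 0.695), factors of cytotoxic and innate-like T cells, were above the activated samples in 4 lymphomas each and were not called. Id3 was not called either (-2.02 ± 0.70, adjusted p = 0.0581). Without 1 activated sample the adjusted p was 0.128 to 0.134 for Bcl11b, 0.0729 to 0.111 for Gata3, 0.0602 to 0.0657 for Zbtb7b and 0.0281 to 0.0552 for Id2, and the call ended for Bcl11b without mPTCL 1, 2, 6, 8 or 9 (adjusted p up to 0.0638). In the fit without mPTCL 1, 2, 4, 5 and 8 it was -2.45 with an adjusted p of 0.0605 for Bcl11b and -1.90 with an adjusted p of 0.0505 for Gata3. Without mPTCL 1, 4 and 5, Id3 was -2.44 with an adjusted p of 0.0309, and without mPTCL 3 and 4 the Eomes difference was 0.206. Without mPTCL 1, 4 and 5 the Tbx21 difference was 0.0021.

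Cytokine receptors and JAK-STAT genes were lower as well. Of 32 tested members 18 fell and 0 rose (median -1.57), and the list mean of every lymphoma (8.32 to 10.06) was below that of the activated samples (10.62 to 10.67). Il6st, the gp130 chain shared by the receptors of the interleukin-6 family, read 12.35, 12.14 and 12.45 in the 3 activated samples and from 6.15 to 9.45 (median 8.62) in the lymphomas and was 18.9-fold lower (-4.24 ± 0.61, adjusted p = 0.000897). Il4ra, the interleukin-4 receptor chain, read 12.03, 11.92 and 11.96 in the 3 activated samples and from 6.61 to 9.46 (median 8.86) in the lymphomas and was 12.01-fold lower (-3.59 ± 0.57, adjusted p = 0.00155). Jak3, the kinase attached to the common gamma chain, read 11.87, 12.29 and 11.53 in the 3 activated samples and from 8.27 to 9.36 (median 8.87) in the lymphomas and was 8.45-fold lower (-3.08 ± 0.25, adjusted p = 2.34e-05), with no overlap for any of the 3 genes. Il2ra, the high-affinity chain of the interleukin-2 receptor and an activation marker, read 10.86, 10.98 and 10.91 in the 3 activated samples and from 5.00 to 13.26 (median 6.02) in the lymphomas. It was above the activated level in mPTCL 3 (13.26), close to it in mPTCL 4 (10.64) and at the floor in mPTCL 2 and 8, and it was not called (-3.40 ± 1.56, adjusted p = 0.137). Without mPTCL 3 and 4 it was -4.67 with an adjusted p of 0.00384. Il2rb, the beta chain, was lower in all 9 (-1.91 ± 0.61, adjusted p = 0.0409), with 0.12 to 0.137 for Il2rb without 1 activated sample and the call ended for Il2rb without mPTCL 1, 2, 3 or 6 (adjusted p up to 0.061). Il2rb without mPTCL 1, 2, 4, 5 and 8 was -1.48 with an adjusted p of 0.101, without mPTCL 1, 4 and 5 -1.49 with an adjusted p of 0.0512, and without mPTCL 3 and 4 -1.59 with an adjusted p of 0.0592. The list had 8 to 10 lower calls without 1 activated sample.

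The Pim kinases, survival kinases downstream of cytokine receptors, moved apart. Pim2 read 11.88, 11.55 and 11.99 in the 3 activated samples and from 7.84 to 10.49 (median 8.47) in the lymphomas and was 8.14-fold lower (-3.02 ± 0.44, adjusted p = 0.00101). Pim3 read 10.07, 10.04 and 10.28 in the 3 activated samples and from 11.55 to 13.98 (median 13.36) in the lymphomas and was 7.23-fold higher (2.85 ± 0.42, adjusted p = 0.00105), or 1.35 (adjusted p = 0.00825) with the mean of its probe sets. Neither overlapped between groups, and Pim1 was not called (0.57 ± 0.50, adjusted p = 0.426). Of the 15 genes of this list of cytokine signal targets, 1 rose (6.67%, against 7.04% of all genes) and 2 fell (13.3%, against 8.28%). The other was Socs1, an inhibitor of JAK kinases (-1.99 ± 0.64, adjusted p = 0.0432; 0.116 to 0.143 for Socs1 without 1 activated sample), whose call also ended for Socs1 without mPTCL 1, 2, 5, 8 or 9 (adjusted p up to 0.0645). Socs1 without mPTCL 1, 2, 4, 5 and 8 was -1.35 with an adjusted p of 0.18, and without mPTCL 1, 4 and 5 -1.96 with an adjusted p of 0.0651. Cish (0.14 ± 1.01, adjusted p = 0.936) and Socs3 (-1.38 ± 0.86, adjusted p = 0.268), which also restrain cytokine signals, were not called.

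Genes of the hypoxia response formed the list with the most lower calls, and the promoters of 3 genes that fell in every lymphoma are printed here. They are picked examples that each hold a match, and some lower members of the list hold none. They show where ACGTG lies, a form of the core of the element bound by the hypoxia-inducible factor. Other forms of the core were not searched. Each window runs from 250 bases before to 50 bases after the start of the gene in RefSeq (GRCm38.p6), 5′ to 3′ in the direction of the gene, with the letters ACGTG on either strand in capitals. The windows are chr7:138909457-138909756, minus strand for Bnip3, chr11:54100674-54100973, plus strand for P4ha2 and chr11:120948817-120949116, plus strand for Slc16a3.
Bnip3: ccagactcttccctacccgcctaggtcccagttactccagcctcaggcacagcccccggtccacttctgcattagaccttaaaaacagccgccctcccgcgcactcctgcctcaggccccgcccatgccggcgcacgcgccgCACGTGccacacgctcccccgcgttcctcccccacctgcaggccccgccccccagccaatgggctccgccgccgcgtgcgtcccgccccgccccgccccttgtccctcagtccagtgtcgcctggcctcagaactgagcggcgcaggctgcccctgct
P4ha2: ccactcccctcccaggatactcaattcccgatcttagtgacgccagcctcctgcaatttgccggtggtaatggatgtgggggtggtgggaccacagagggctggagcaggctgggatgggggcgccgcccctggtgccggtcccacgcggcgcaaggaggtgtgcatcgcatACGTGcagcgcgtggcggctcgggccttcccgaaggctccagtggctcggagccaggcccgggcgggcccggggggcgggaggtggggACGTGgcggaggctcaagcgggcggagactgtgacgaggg
Slc16a3: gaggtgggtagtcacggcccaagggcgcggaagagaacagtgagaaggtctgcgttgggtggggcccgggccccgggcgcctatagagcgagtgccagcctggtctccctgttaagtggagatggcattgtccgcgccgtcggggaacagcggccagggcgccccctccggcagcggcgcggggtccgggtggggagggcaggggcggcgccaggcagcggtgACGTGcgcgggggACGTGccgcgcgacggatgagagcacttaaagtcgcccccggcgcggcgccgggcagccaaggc
Counting the first base of the gene as 1, matches begin at -108 and -107 in Bnip3, which are 1 CACGTG read on both strands, at -78 and 11 in P4ha2 and at -27 and -14 in Slc16a3. ACGTG was present in 13 of 18 lower members of the hypoxia list with a window (72.2%) and in 5 of 11 members not called (45.5%), against 2838 of 9653 genes tested with a window (29.4%). A gene counts if any of its windows matches, and some genes have several windows. By window, ACGTG was present in 14 of 28 of the lower members (50.0%), 5 of 11 of those not called (45.5%) and 25.5% of all 12344. In the glycolysis list it was present in 7 of 9 lower members (77.8%) and 6 of 8 not called (75.0%). The letters ACGTG also lie within the E-box CACGTG. A match describes the letters and shows no binding.

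Of 34 hypoxia-response genes tested, 21 fell and 1 rose (median -1.83), and the list mean was 10.15 to 10.48 in activated cells and 8.17 to 9.28 in lymphomas. Bnip3, a mitophagy receptor, read 13.79, 13.90 and 13.86 in the 3 activated samples and from 7.37 to 11.70 (median 9.52) in the lymphomas and was 21.8-fold lower (-4.45 ± 0.77, adjusted p = 0.00234). P4ha2, a collagen prolyl hydroxylase subunit, read 9.78, 10.88 and 10.09 in the 3 activated samples and from 5.00 to 7.26 (median 5.67) in the lymphomas and was at least 20.2-fold lower (-4.34 ± 0.51, adjusted p = 0.000282). Vldlr, a lipoprotein receptor, was at least 14.3-fold lower (-3.84 ± 0.36, adjusted p = 6.79e-05), or -1.995 (adjusted p = 1.25e-05) with the mean of its probe sets. None of these 3 overlapped between the groups, and each kept its call whichever single array was left out. Hif1a, the oxygen-regulated subunit of the factor itself, read 14.20, 14.34 and 14.18 in the 3 activated samples and from 11.36 to 13.41 (median 12.33) in the lymphomas (-1.83 ± 0.32, adjusted p = 0.00248). Pdk1, a kinase that inhibits pyruvate dehydrogenase, read 13.97, 13.99 and 13.83 in the 3 activated samples and from 9.85 to 12.67 (median 11.81) in the lymphomas (-2.52 ± 0.52, adjusted p = 0.00575). These 2 genes were singled out after their values were seen. Ak4, a mitochondrial adenylate kinase (-3.75 ± 0.97, adjusted p = 0.0169), Plod2, a lysyl hydroxylase (-3.48 ± 0.97, adjusted p = 0.0235), Egln3, an oxygen-sensing prolyl hydroxylase (-2.80 ± 0.91, adjusted p = 0.044), and the vascular growth factor Vegfa (-2.18 ± 0.65, adjusted p = 0.0326) were below the activated samples in all 9 lymphomas. Without 1 activated sample the adjusted p was 0.0668 to 0.0782 for Ak4, 0.0718 to 0.103 for Plod2, 0.0912 to 0.171 for Egln3 and 0.104 to 0.121 for Vegfa, and the call ended for Egln3 without mPTCL 1, 2, 6, 7 or 8 (adjusted p up to 0.0643). Ak4 without mPTCL 1, 2, 4, 5 and 8 was -3.52 with an adjusted p of 0.0541, Plod2 -3.34 with an adjusted p of 0.0544 and Egln3 -3.18 with an adjusted p of 0.111. The member that rose was Anxa1, annexin A1, a regulator of inflammation abundant in myeloid cells (8.43, 8.52 and 8.68 in the 3 activated samples and from 9.73 to 13.09 (median 11.98) in the lymphomas; 3.11 ± 0.68, adjusted p = 0.00734), with 1.88 (adjusted p = 0.0335) for the mean of its probe sets. The list had 12 lower calls without 1 activated sample and 18 without those 5 lymphomas.

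Of 18 glycolytic enzymes and transporters, 10 fell and 0 rose (median -1.19), with a list mean of 11.78 to 12.02 in activated cells and 9.74 to 10.85 in lymphomas. Aldoc, the C form of aldolase, read 12.24, 12.72 and 12.004 in the 3 activated samples and from 5.90 to 9.99 (median 8.71) in the lymphomas and was 15.7-fold lower (-3.97 ± 0.83, adjusted p = 0.00615). Slc16a3, the MCT4 transporter that exports lactate, read 12.32, 12.10 and 12.40 in the 3 activated samples and from 8.26 to 10.59 (median 8.96) in the lymphomas and was 8.06-fold lower (-3.01 ± 0.42, adjusted p = 0.000775). The liver and platelet forms of phosphofructokinase, Pfkl (-2.18 ± 0.44, adjusted p = 0.00488) and Pfkp (-2.02 ± 0.44, adjusted p = 0.0075), were lower in all 9 lymphomas, and these 4 calls held whichever single array was left out. The main glucose importer Slc2a1 (-0.44 ± 0.41, adjusted p = 0.463) and the hexokinase Hk2 (-0.87 ± 0.39, adjusted p = 0.132) were not called, with 7 and 8 lymphomas below the activated samples. The list had 7 to 9 lower calls without 1 activated sample.

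**Figure D3:**
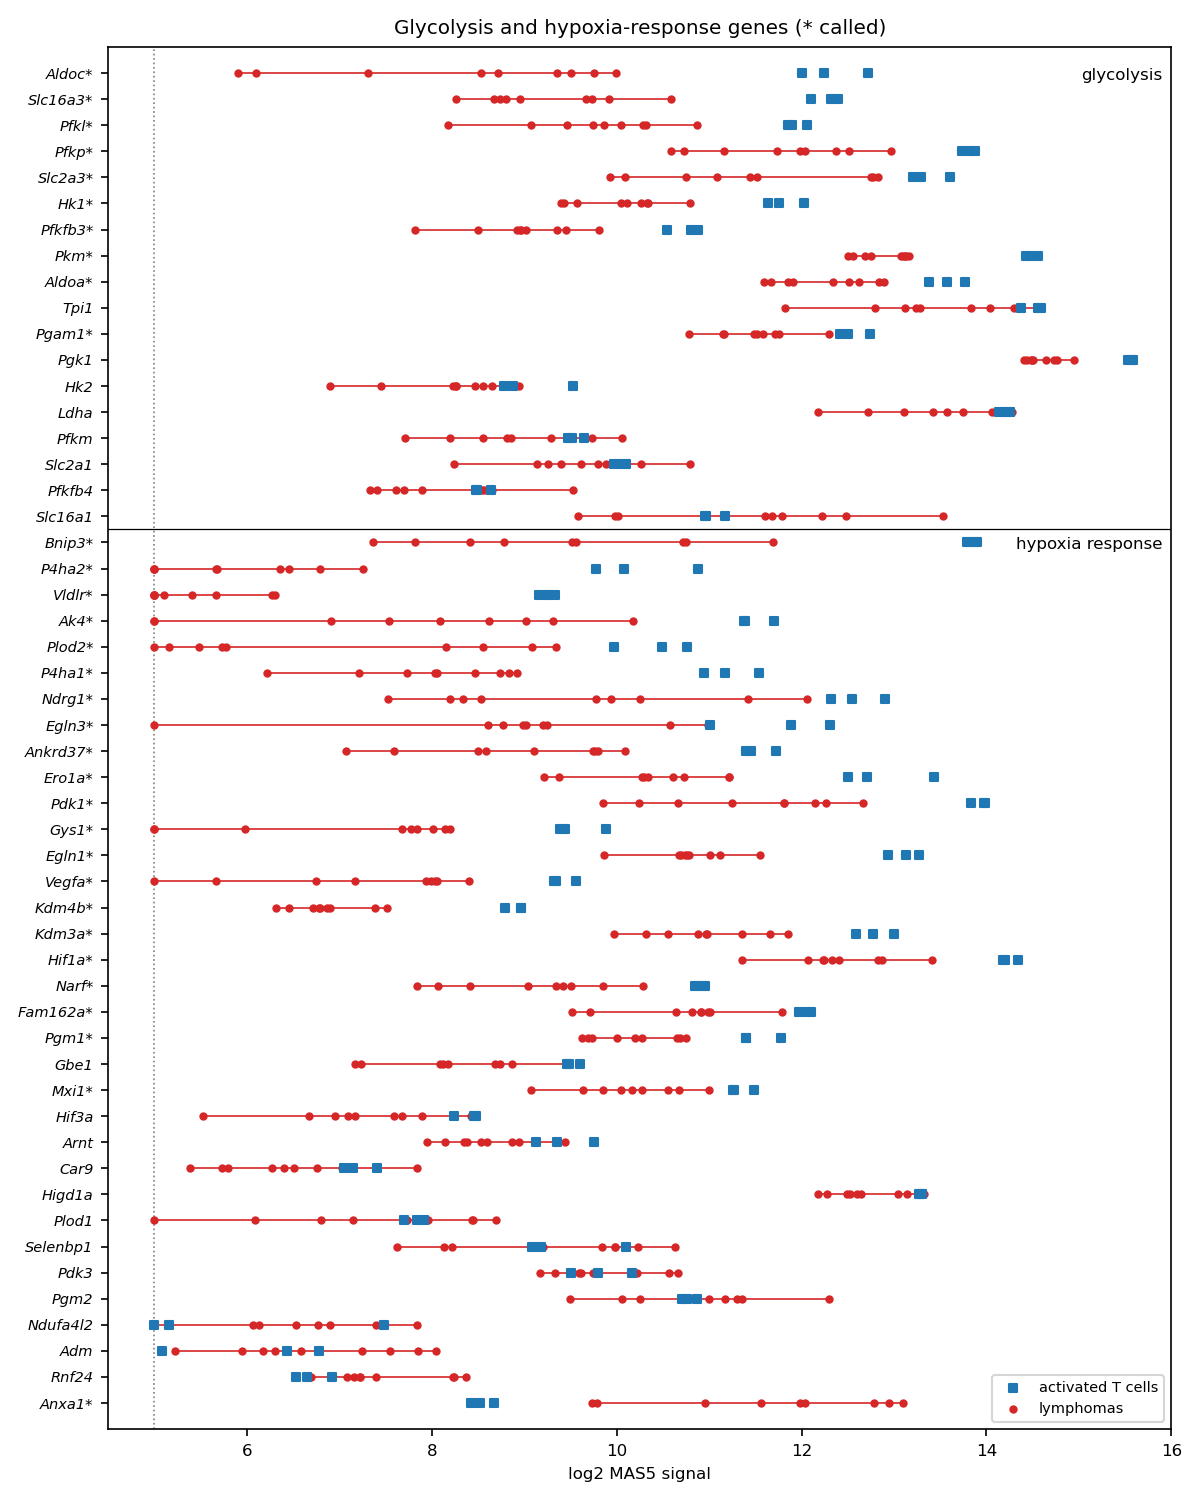
Log2 MAS5 signal of each tested member of the glycolysis list (top) and hypoxia-response list (bottom) in the 3 activated arrays (blue squares) and 9 lymphomas (red points joined by a line), with called genes marked by an asterisk and a dotted line at the floor of 5. The lymphomas lie to the left of the activated arrays for most called genes, and Anxa1, at the end of the hypoxia list, is the called gene that lies to the right.

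Mitochondrial genes went the other way. Of 33 genes of the respiratory chain and the tricarboxylic acid cycle, 10 rose (30.3%, against 7.04% of all genes) and 1 fell (median 0.81), and all 9 lymphomas were above the activated samples for 18. Ndufa4 read 9.03, 8.10 and 8.14 in the 3 activated samples and from 9.71 to 10.70 (median 10.02) in the lymphomas and was 3.31-fold higher (1.73 ± 0.28, adjusted p = 0.00183). Cox7a2, a subunit of cytochrome oxidase, read 12.23, 12.12 and 12.34 in the 3 activated samples and from 13.31 to 14.21 (median 13.84) in the lymphomas (1.59 ± 0.20, adjusted p = 0.000401). Cyc1, cytochrome c1 of complex III, was 2.88-fold higher (1.53 ± 0.34, adjusted p = 0.00803), and Idh3a, a subunit of isocitrate dehydrogenase, was 2.54-fold higher (1.35 ± 0.21, adjusted p = 0.00139), or 1.04 (adjusted p = 0.0718) with the mean of its probe sets. No lymphoma overlapped the activated samples for these 4 genes. The member that fell was Ogdh, of the oxoglutarate dehydrogenase complex (-1.15 ± 0.36, adjusted p = 0.0365), with 0.104 to 0.158 for Ogdh without 1 activated sample, -0.89 with an adjusted p of 0.0399 without mPTCL 1, 2, 4, 5 and 8, and -0.84 with an adjusted p of 0.0216 without mPTCL 1, 4 and 5. Its call also ended for Ogdh without mPTCL 1 or 6 (adjusted p up to 0.0505). The list had 9 to 11 higher calls without 1 activated sample.

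Ribosome biogenesis genes rose most often among the lists. Of 31 members of the Myc and ribosome biogenesis list, 17 rose (54.8%) and 1 fell (median 1.22). Ppan, which acts in assembly of the large ribosomal subunit, read 7.88, 7.15 and 7.88 in the 3 activated samples and from 9.48 to 11.58 (median 10.32) in the lymphomas and was 7.17-fold higher (2.84 ± 0.40, adjusted p = 0.00077). Gnl3, nucleostemin, read 10.01, 10.14 and 9.84 in the 3 activated samples and from 11.78 to 12.97 (median 12.21) in the lymphomas and was 4.86-fold higher (2.28 ± 0.24, adjusted p = 0.000131). Grwd1, a chaperone of a ribosomal protein, was 6.18-fold higher (2.63 ± 0.53, adjusted p = 0.00514), or 1.48 (adjusted p = 0.0102) with the mean of its probe sets. Every lymphoma was above every activated sample for these 3. Max, the obligate partner of Myc, was the member that fell, at 10.65, 11.21 and 11.01 in the 3 activated samples and from 8.23 to 9.79 (median 8.55) in the lymphomas (-2.26 ± 0.34, adjusted p = 0.00111). Myc itself read 11.17, 11.38 and 11.05 in the 3 activated samples and from 10.71 to 13.73 (median 12.07) in the lymphomas, above the activated samples in 7 lymphomas and below them in mPTCL 4 and 5, and was not called (1.13 ± 0.59, adjusted p = 0.187). Without mPTCL 1, 4 and 5 Myc was 1.69 with an adjusted p of 0.0133. The list had 10 to 11 higher calls without 1 activated sample and 16 without mPTCL 1, 2, 4, 5 and 8. The E-box CACGTG, the letters that Myc and Max bind, was present in 6 of 14 members that rose and have a window (42.9%), in 2 of 9 not called (22.2%) and in 1126 of 9653 genes tested (11.7%). The window of Grwd1 (chr7:45830740-45831039, minus strand) is shown as an example, with its single match, which begins at base 35 of the gene, in capitals.
Grwd1: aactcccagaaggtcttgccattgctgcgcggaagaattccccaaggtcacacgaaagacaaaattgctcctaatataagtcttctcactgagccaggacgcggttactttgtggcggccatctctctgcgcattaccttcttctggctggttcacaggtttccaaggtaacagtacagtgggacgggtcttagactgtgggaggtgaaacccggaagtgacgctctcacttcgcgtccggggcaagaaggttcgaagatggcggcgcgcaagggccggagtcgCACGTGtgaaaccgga

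Other biosynthetic and stress lists had higher calls beyond the share over all genes. In the amino acid, one-carbon and ATF4 list 7 of 29 rose and 2 fell (median 0.24). Atf4, the transcription factor of the amino acid response, read 10.78, 10.62 and 10.22 in the 3 activated samples and from 11.48 to 12.80 (median 12.28) in the lymphomas (1.62 ± 0.31, adjusted p = 0.00384), and Slc7a5, a leucine transporter, was 3.45-fold higher (1.79 ± 0.34, adjusted p = 0.00388). Trib3, a pseudokinase that is itself a known target of ATF4, read 9.67, 9.22 and 9.41 in the 3 activated samples and from 5.75 to 7.24 (median 6.38) in the lymphomas and was 8.41-fold lower (-3.07 ± 0.37, adjusted p = 0.000292). The other member that fell was Vldlr, which is also in the hypoxia list. Of 22 genes of the unfolded protein response 5 rose and 0 fell (median 0.68). They were Creld2 (2.58 ± 0.46, adjusted p = 0.0026), Sdf2l1 (1.50 ± 0.32, adjusted p = 0.00654), Pdia6, a disulfide isomerase (1.39 ± 0.22, adjusted p = 0.0017), Hspa5, the chaperone BiP (1.12 ± 0.20, adjusted p = 0.00261), and the lectin chaperone Canx (1.01 ± 0.32, adjusted p = 0.0403). Of 24 antioxidant genes 4 rose and 0 fell (median 0.82), among them Gsto1, a glutathione transferase (9.65, 9.34 and 9.70 in the 3 activated samples and from 10.96 to 13.57 (median 12.06) in the lymphomas; 2.56 ± 0.40, adjusted p = 0.0015), and Sod2, the mitochondrial superoxide dismutase (1.70 ± 0.25, adjusted p = 0.00116; 0.98 (adjusted p = 0.0189) with the mean of its probe sets). Each of these genes was beyond the activated samples in all 9 lymphomas. Without 1 activated sample the adjusted p was 0.0238 to 0.0502 for Sdf2l1 and 0.122 to 0.137 for Canx, and the call ended for Canx without mPTCL 1, 2, 6, 7, 8 or 9 (adjusted p up to 0.0608). Canx was 0.87 (adjusted p = 0.0205) with the mean of its probe sets. Without 1 activated sample the amino acid list had 2 to 3 higher calls, the unfolded protein list 3 to 4 and the antioxidant list 2 to 3. In the cholesterol and fatty acid list 3 of 29 fell (10.3%, against 8.28% of all genes) and 0 rose (median -0.73), and 0 calls were left without 1 activated sample.

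The cell cycle lists are given beside the shares over all genes, 7.04% higher and 8.28% lower. Of 47 mitotic genes 3 fell (6.38%) and 0 rose (median -0.17), and Mki67, the proliferation marker, read 14.00, 13.83 and 14.28 in the 3 activated samples and from 11.84 to 14.16 (median 13.70) in the lymphomas and was not called (-0.63 ± 0.39, adjusted p = 0.272). Of 44 replication genes 4 rose (9.09%) and 0 fell (median 0.66). Rfc3, a clamp loader subunit, read 8.16, 8.71 and 8.44 in the 3 activated samples and from 9.39 to 11.57 (median 10.79) in the lymphomas and was 4.58-fold higher (2.19 ± 0.43, adjusted p = 0.00422), and Orc6, of the origin recognition complex, was 4.22-fold higher (2.08 ± 0.36, adjusted p = 0.00223). The replication list depended on which lymphomas entered: 2 members were called without 1 activated sample, but 17 without mPTCL 1, 2, 4, 5 and 8, 22 without mPTCL 1, 4 and 5 and 15 without mPTCL 3 and 4. Its mean was 10.11 in mPTCL 4 and 10.42 in mPTCL 5, and 10.91 to 11.93 in the other 7, against 10.26 to 10.53 in activated cells. Of 29 regulators of the first gap phase, 2 rose (6.90%) and 3 fell (10.3%). Ccng2, an atypical cyclin of resting cells, fell (13.52, 13.50 and 13.43 in the 3 activated samples and from 10.70 to 12.40 (median 11.74) in the lymphomas; -1.90 ± 0.31, adjusted p = 0.00183), and Tfdp1, the partner of E2F factors, rose (10.65, 10.82 and 10.32 in the 3 activated samples and from 11.17 to 12.35 (median 11.95) in the lymphomas; 1.25 ± 0.26, adjusted p = 0.00643). Ung, a uracil glycosylase of base excision repair, was 5.12-fold higher (2.36 ± 0.48, adjusted p = 0.00543) and one of 2 of 34 repair genes that rose, beside the checkpoint kinase Chek1 (1.32 ± 0.37, adjusted p = 0.0233; 0.0623 to 0.114 for Chek1 without 1 activated sample), which was 0.96 (adjusted p = 0.0425) with the mean of its probe sets. Among 19 known targets of p53, which is absent from both groups, 1 rose and 3 fell. Polk, a translesion polymerase, fell (-1.81 ± 0.39, adjusted p = 0.00714) and was -1.75 with an adjusted p of 0.05 without mPTCL 1, 2, 4, 5 and 8. Aen, a nuclease of apoptosis, rose (1.31 ± 0.24, adjusted p = 0.00324) but was 0.54 (adjusted p = 0.122) with the mean of its probe sets. In the Bcl2 family 1 of 20 rose and 2 fell. Bid, which relays death signals to mitochondria, read 8.79, 8.73 and 8.70 in the 3 activated samples and from 9.62 to 10.96 (median 10.26) in the lymphomas and was 2.87-fold higher (1.52 ± 0.29, adjusted p = 0.00374).

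Immediate early genes, which respond within minutes to receptor signals, included Fos, the largest increase among the lists other than those of cell type markers. Of 28 tested members 6 rose and 0 fell (median 0.78). Fos, a subunit of the AP-1 factor, read 5.92, 6.41 and 5.00 in the 3 activated samples and from 6.87 to 14.58 (median 13.15) in the lymphomas. It was at least 104-fold higher (6.70 ± 1.35, adjusted p = 0.00506) and lowest in mPTCL 9 (6.87) and mPTCL 3 (9.62). The 3 resting samples, which took no part in the tests, read 8.345, 12.45 and 12.04 for Fos, also above the activated samples. Dusp1, a phosphatase of MAP kinases, read 6.71, 7.67 and 7.69 in the 3 activated samples and from 8.16 to 13.48 (median 11.83) in the lymphomas (4.31 ± 0.88, adjusted p = 0.00525). Fosb, another Fos protein, was at the floor in every activated sample and reached 5.63 to 11.29 in lymphomas (4.08 ± 0.95, adjusted p = 0.0102). Jun, the AP-1 partner, was 10.2-fold higher (3.36 ± 0.89, adjusted p = 0.0193) and Klf4, a zinc finger factor, 15.01-fold higher in 8 of 9 lymphomas (3.91 ± 1.101, adjusted p = 0.0246), with 0.0693 to 0.0864 for Jun and 0.0712 to 0.107 for Klf4 without 1 activated sample. Neutrophil markers were high in mPTCL 1, 2, 4, 5 and 8, and without them 0 members rose and 2 fell in limma. Fos was then 5.16 with an adjusted p of 0.0621, Dusp1 3.56 with an adjusted p of 0.0607, Fosb 3.00 with an adjusted p of 0.0554 and Jun 3.17 with an adjusted p of 0.0821. Klf4 was 2.86 with an adjusted p of 0.145. In the 4 lymphomas left, mPTCL 3, 6, 7 and 9, Fos read 9.62, 14.18, 13.07 and 6.87, and the neutrophil marker means were 6.03, 7.66, 5.96 and 7.68. The part of neutrophils in these values was not tested. The list had 3 to 4 higher calls without 1 activated sample.

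Inhibitory and costimulatory receptors were lower where they were called, with 5 of 18 lower and 0 higher (median -0.91). Ctla4, the checkpoint receptor that competes with Cd28, read 13.81, 13.53 and 13.78 in the 3 activated samples and from 5.00 to 12.95 (median 8.91) in the lymphomas and was at least 33.7-fold lower (-5.08 ± 1.26, adjusted p = 0.0141). It was at the floor in mPTCL 9 and highest in mPTCL 5 (12.95). Cd27, a costimulatory receptor of the TNF family, was at least 14.1-fold lower (-3.82 ± 0.74, adjusted p = 0.00424), and the checkpoint receptor Lag3 was at least 6.32-fold lower (-2.66 ± 0.67, adjusted p = 0.0144). Pdcd1, the receptor PD-1, read 7.76, 8.38 and 8.31 in the 3 activated samples and from 5.00 to 12.24 (median 9.62) in the lymphomas, above the activated samples in 6 lymphomas and at the floor in mPTCL 7, and was not called (1.22 ± 1.18, adjusted p = 0.481). In the TNF family list 4 of 19 fell and 0 rose. Tnfsf8, the ligand of CD30, was 8.15-fold lower (-3.03 ± 0.71, adjusted p = 0.0109), and Tnfrsf4, the receptor OX40, was 3.16-fold lower (-1.66 ± 0.55, adjusted p = 0.0497). Tnfrsf9, the receptor 4-1BB, was not called (0.14 ± 0.93, adjusted p = 0.928). Traf1, an adaptor of these receptors, read 11.79, 11.59 and 11.77 in the 3 activated samples and from 5.00 to 9.37 (median 8.57) in the lymphomas and was at least 10.5-fold lower (-3.39 ± 0.72, adjusted p = 0.00654), the 1 called gene of 19 in the NF-kB list. Without 1 activated sample the adjusted p was 0.059 to 0.0645 for Ctla4, 0.0517 to 0.0841 for Lag3, 0.0487 to 0.0588 for Tnfsf8 and 0.127 to 0.168 for Tnfrsf4, and the receptor list had 1 lower call and the TNF list 0 to 1. The call also ended for Tnfrsf4 without mPTCL 1, 2, 3, 6, 7 or 9 (adjusted p up to 0.0736), and its adjusted p was 0.0501 with genes represented by the mean of their probe sets.

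Receptors and effectors of NK cells varied from lymphoma to lymphoma. Of 21 NK receptors 0 were called in limma and 5 had an unadjusted p under 0.05 (median 0.82), with a median SD of 2.09 among lymphomas. With quantile normalisation, or with only genes at 200 or more in 3 arrays, 3 were called higher. Ncr1, the receptor NKp46 and a defining NK gene, was at the floor in the 3 activated samples and in mPTCL 4, 5 and 9. It read 11.57 in mPTCL 2, 11.16 in mPTCL 8, 9.39 in mPTCL 7 and 9.27 in mPTCL 1 (2.93 ± 1.39, adjusted p = 0.148). Klrd1, the CD94 chain of an inhibitory receptor, read 14.46, 13.90 and 14.17 in the 3 activated samples and from 5.71 to 14.46 (median 10.38) in the lymphomas, near the activated level in mPTCL 2, 6, 8 and 9 and 5.71 in mPTCL 7 (-3.09 ± 1.63, adjusted p = 0.192). Klrk1, the activating receptor NKG2D, was above the activated samples in mPTCL 2, 6 and 8 and below them in the other 6 (-2.06 ± 1.58, adjusted p = 0.367). Of 9 adaptors and kinases 2 rose and 0 fell. Tyrobp, the adaptor DAP12 of NK and myeloid cells, read 5.22, 5.02 and 5.47 in the 3 activated samples and from 6.25 to 13.65 (median 12.06) in the lymphomas and was 60.3-fold higher (5.91 ± 1.49, adjusted p = 0.0147), lowest in mPTCL 6 (6.40) and 7 (6.25). It was 4.58 with an adjusted p of 0.135 without mPTCL 1, 2, 4, 5 and 8, and 0.0602 to 0.0686 was its adjusted p without 1 activated sample. In mPTCL 3 and 9, where the neutrophil marker means were 6.03 and 7.68, Tyrobp read 12.96 and 13.65. The macrophage marker means were 7.09 and 7.26 in these lymphomas, against 5.84 to 6.02 in activated cells. The part of myeloid cells in Tyrobp was not tested. Plcg2, the phospholipase that acts downstream of these adaptors and of the B cell receptor, read 8.27, 10.03 and 8.53 in the 3 activated samples and from 10.30 to 13.57 (median 12.62) in the lymphomas and was 10.4-fold higher (3.38 ± 0.55, adjusted p = 0.00183), a call that held whichever single array was left out. Fcer1g (2.89 ± 1.11, adjusted p = 0.0802) and Syk (2.07 ± 1.37, adjusted p = 0.299) were not called.

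Cytotoxic granule genes and effector cytokines had 0 of 20 and 0 of 13 members called in limma, with 2 of each at an unadjusted p under 0.05. Of the granule genes, Gzmb, granzyme B, read 12.24, 13.77 and 12.96 in the 3 activated samples and from 6.89 to 15.17 (median 11.51) in the lymphomas, higher than the activated samples in mPTCL 2, 6, 7 and 9 and lowest in mPTCL 4 and 5 (-1.19 ± 1.66, adjusted p = 0.638). Without mPTCL 1, 2, 4, 5 and 8 its difference was 0.721, and without mPTCL 1, 4 and 5 it was 0.558. Gzma, granzyme A, read 11.72, 13.65 and 12.39 in the 3 activated samples and from 10.45 to 15.59 (median 14.99) in the lymphomas (1.89 ± 0.90, adjusted p = 0.15), low in mPTCL 5, and was 2.62 with an adjusted p of 0.00771 without mPTCL 1, 2, 4, 5 and 8. Prf1, perforin, was above the activated samples in 3 lymphomas and below them in 5 (0.04 ± 0.76, adjusted p = 0.978). Ifng, interferon gamma, read 7.17, 8.14 and 8.77 in the 3 activated samples and from 5.78 to 14.37 (median 11.34) in the lymphomas, above the activated samples in 6 lymphomas (2.26 ± 1.68, adjusted p = 0.353). Some large differences in these lists missed the threshold: Klrb1b (4.67 ± 1.58, adjusted p = 0.0528), Klrg1 (4.27 ± 1.44, adjusted p = 0.0522), Cd244a (4.05 ± 1.39, adjusted p = 0.0549) and the chemokine Ccl3 (4.05 ± 1.41, adjusted p = 0.0578), which were picked out after their values were seen. Klrg1, an inhibitory receptor of NK and effector T cells, was above the activated samples in all 9 lymphomas, at from 7.68 to 15.06 (median 12.38).

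**Figure D4:**
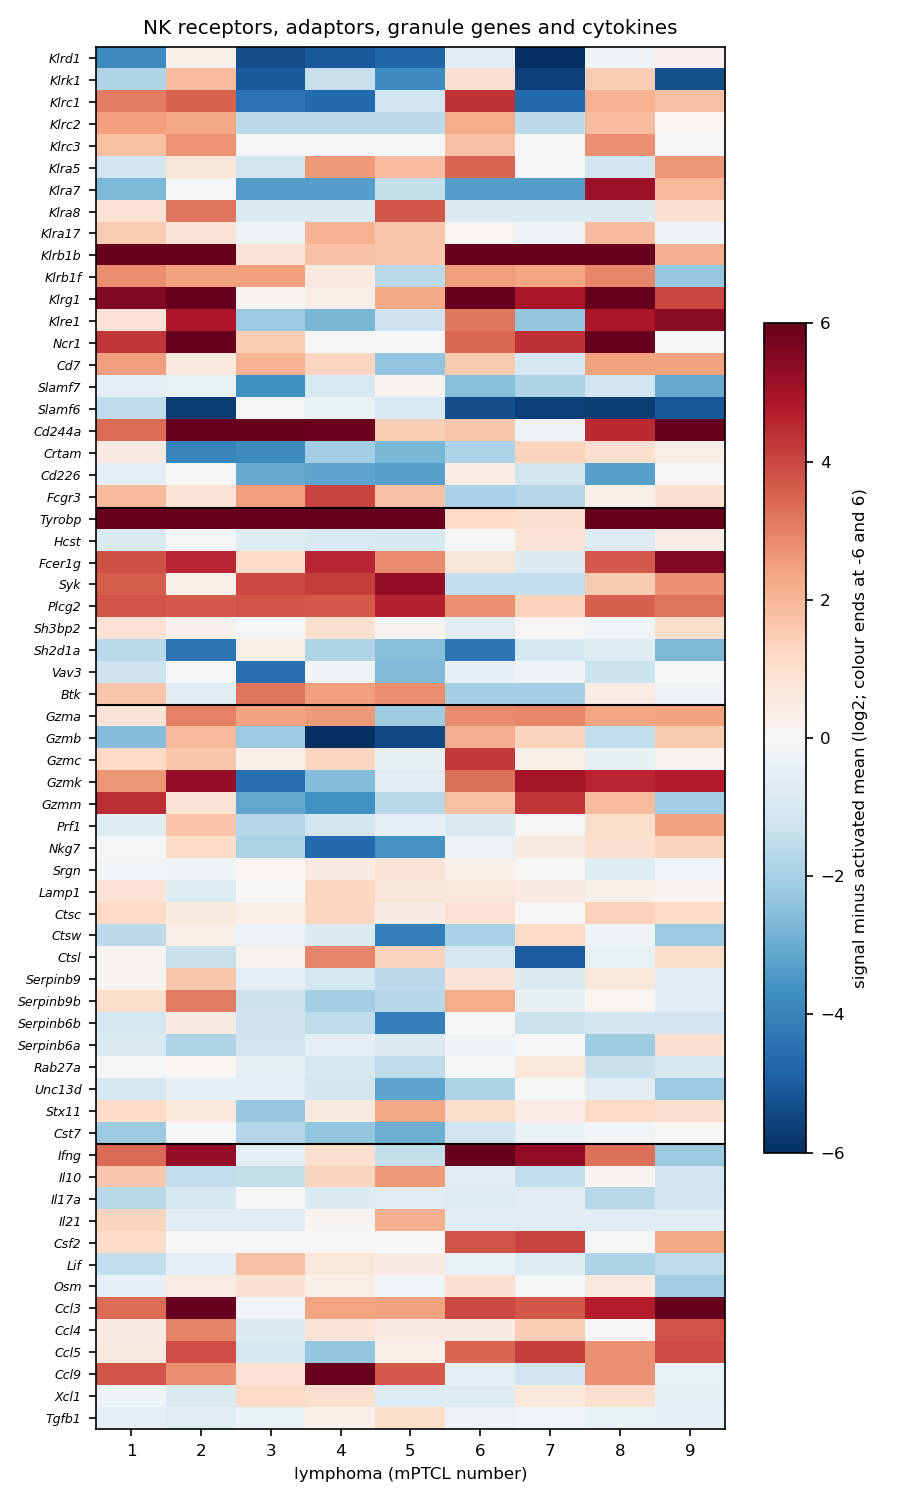
Difference of each lymphoma from the mean of the activated samples for NK receptors, receptor adaptors, granule genes and effector cytokines (blocks from top to bottom, log2, blue lower and red higher, colour ends at -6 and 6). Columns differ from one lymphoma to the next: Ncr1 is high in mPTCL 2 and 8 and at the activated level in mPTCL 4, 5 and 9, and Tyrobp is above the activated mean in all 9, least in mPTCL 6 and 7.

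Interferon-stimulated genes and antigen presentation were lower in part. Of 30 interferon genes 7 fell and 0 rose (median -0.62), led by Ifi27l2a (-3.44 ± 0.86, adjusted p = 0.014) and the immunity GTPase Igtp (-2.77 ± 0.72, adjusted p = 0.0176), with 0.0544 to 0.0669 for Ifi27l2a and 0.0688 to 0.0769 for Igtp without 1 activated sample. The interferon list had 1 to 2 lower calls then. Its mean was 10.73 in mPTCL 1 and 8.35 in mPTCL 5, the extremes, with activated samples at 9.95 to 10.04. Of 11 genes of class I presentation 3 fell and 0 rose. Tap1, a peptide transporter, read 12.26, 12.31 and 12.19 in the 3 activated samples and from 10.55 to 11.77 (median 11.15) in the lymphomas (-1.15 ± 0.23, adjusted p = 0.0046), or -0.51 (adjusted p = 0.0401) with the mean of its probe sets.

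Several signalling genes changed in all 9 lymphomas and kept their calls whichever single array was left out. Of the transforming growth factor beta pathway 3 of 17 fell and 0 rose, and all 3 were regulators at its top: the coreceptor Tgfbr3 (10.18, 10.08 and 9.89 in the 3 activated samples and from 5.00 to 8.26 (median 7.03) in the lymphomas; -3.04 ± 0.59, adjusted p = 0.00424), the receptor Tgfbr2 (13.42, 13.26 and 13.22 in the 3 activated samples and from 10.22 to 12.92 (median 11.46) in the lymphomas; -1.92 ± 0.42, adjusted p = 0.00734) and the inhibitory Smad7 (11.10, 10.99 and 10.74 in the 3 activated samples and from 7.64 to 10.29 (median 8.77) in the lymphomas; -2.20 ± 0.42, adjusted p = 0.0037). Of 22 Ras and MAP kinase genes 2 rose (9.09%, against 7.04% of all genes) and 4 fell (18.2%, against 8.28%). Spred1 (1.41 ± 0.47, adjusted p = 0.0493, 0.074 to 0.222 without 1 activated sample) and Mapk14 (1.02 ± 0.24, adjusted p = 0.0108, 0.0413 to 0.0592) rose. The list had 0 higher calls with the mean of probe sets. It also had 0 without mPTCL 1, 2, 4, 5 and 8, without mPTCL 1, 4 and 5 and without mPTCL 3 and 4. Rasgrp2, an exchange factor for Rap1, fell (-2.84 ± 0.45, adjusted p = 0.00159, or -1.18 (adjusted p = 0.0348) with the mean of its probe sets), and so did Rasal3, a Ras GTPase activator of T cells (12.56, 12.75 and 12.52 in the 3 activated samples and from 9.20 to 11.17 (median 10.26) in the lymphomas; -2.32 ± 0.32, adjusted p = 0.00071). Of 19 PI3K and mTOR genes 1 rose and 4 fell. Pik3cd, the leukocyte PI3K catalytic subunit, fell (11.88, 12.03 and 12.004 in the 3 activated samples and from 9.51 to 11 (median 10.61) in the lymphomas; -1.51 ± 0.34, adjusted p = 0.00838), and Rheb, the GTPase that activates mTOR, rose (12.25, 12.22 and 12.22 in the 3 activated samples and from 13.10 to 13.67 (median 13.28) in the lymphomas; 1.09 ± 0.15, adjusted p = 0.00073). Inpp4b, a phosphatase of PI3K products, was at least 29.8-fold lower (-4.90 ± 1.21, adjusted p = 0.0133), but its adjusted p was 0.059 to 0.0636 without 1 activated sample. Without mPTCL 1, 2, 4, 5 and 8 it was -3.21 with an adjusted p of 0.0515.

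In the Notch list 1 of 21 rose and 4 fell. Maml2, a coactivator of Notch, read 9.61, 9.72 and 9.63 in the 3 activated samples and from 5.24 to 7.66 (median 6.76) in the lymphomas and was 7.88-fold lower (-2.98 ± 0.43, adjusted p = 0.000949). Notch1 itself read 11.68, 11.37 and 11.47 in the 3 activated samples and from 8.12 to 12.62 (median 8.95) in the lymphomas, at 12.62 and 12.46 in mPTCL 3 and 4 and below the activated samples in the other 7, and was not called (-1.90 ± 0.91, adjusted p = 0.152). Without mPTCL 3 and 4, the lymphomas with low Cd3e, Notch1 was -2.74 with an adjusted p of 0.000397. Of 25 chromatin enzymes 1 rose and 5 fell. Kdm5b, a demethylase of histone H3 lysine 4, was 9.74-fold lower (-3.28 ± 0.65, adjusted p = 0.00451), and the class II deacetylase Hdac7 8.87-fold lower (-3.15 ± 0.64, adjusted p = 0.00543). Bmi1, a Polycomb protein, rose (1.09 ± 0.21, adjusted p = 0.0045) and was 0.99 with an adjusted p of 0.00673 without mPTCL 3 and 4, and 0.70 (adjusted p = 0.0109) with the mean of its probe sets.

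Trafficking receptors in the lists given next were mostly not called, with 10.5% of homing receptors and 11.5% of integrins and adhesion genes lower, against 8.28% of all genes. The homing list leaves out Ccr7, which is counted in the naive T cell list and was lower in all 9 lymphomas (-6.24 ± 1.09, adjusted p = 0.00248). Of 19 chemokine and homing receptors 2 fell and 0 rose: Gpr132, a proton- and lipid-sensing receptor (11.38, 11.27 and 11.44 in the 3 activated samples and from 5.49 to 9.32 (median 8.65) in the lymphomas; -2.95 ± 0.62, adjusted p = 0.00651), and S1pr4, a sphingosine phosphate receptor (13.49, 13.11 and 13.28 in the 3 activated samples and from 9.44 to 11.76 (median 10.67) in the lymphomas; -2.77 ± 0.42, adjusted p = 0.0012). Of 26 integrins and adhesion genes 3 fell and 0 rose, led by Itgb3, the beta 3 integrin (12.44, 12.47 and 12.51 in the 3 activated samples and from 6.27 to 10.03 (median 9.20) in the lymphomas; -3.87 ± 0.70, adjusted p = 0.00301). In the S100, annexin and cytoskeleton list 3 of 28 rose (10.7%, against 7.04% of all genes) and 1 fell (3.57%, against 8.28%). S100a4 was 10.6-fold higher (3.41 ± 0.99, adjusted p = 0.0283; 0.0818 to 0.113 for S100a4 without 1 activated sample; 3.46 with an adjusted p of 0.071 without mPTCL 1, 2, 4, 5 and 8). Lmna, lamin A/C, was 9.56-fold higher in all 9 (3.26 ± 0.83, adjusted p = 0.0161; 0.0535 to 0.0881 for Lmna without 1 activated sample), but 0.85 (adjusted p = 0.133) with the mean of its probe sets.

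Markers of other cells were among the largest increases. Of 13 tested neutrophil markers 3 rose, Chil3, S100a8 and S100a9, and 3 of the 14 on the array were at the floor in all 3 activated samples. Chil3, a secreted chitinase-like protein of myeloid cells, read 5.00, 5.30 and 5.11 in the 3 activated samples and from 7.26 to 15.26 (median 12.98) in the lymphomas and was at least 136-fold higher (7.09 ± 1.45, adjusted p = 0.00543). It remained called at 4.54 with an adjusted p of 0.0165 without mPTCL 1, 2, 4, 5 and 8. S100a8, a calcium-binding protein of neutrophils, read 5.47, 5.00 and 5.00 in the 3 activated samples and from 6.06 to 14.73 (median 13.05) in the lymphomas, and mPTCL 3 and 7 were lowest. It was at least 68.00-fold higher (6.09 ± 1.73, adjusted p = 0.0253), with 0.0845 to 0.0973 for S100a8 without 1 activated sample and 2.87 with an adjusted p of 0.0724 without those 5 lymphomas. S100a9, its partner, differed by 6.30 ± 1.73, adjusted p = 0.0223, with 0.0826 to 0.0858 for S100a9 without 1 activated sample and 3.10 with an adjusted p of 0.0616 without those 5. Lyz1, a lysozyme, was the 1 macrophage marker of 16 that rose (5.00, 6.52 and 5.00 in the 3 activated samples and from 6.08 to 15.01 (median 13.66) in the lymphomas; 6.30 ± 1.67, adjusted p = 0.0191; 0.0573 to 0.0841 for Lyz1 without 1 activated sample; 3.26 with an adjusted p of 0.0672 without those 5), and the macrophage list mean was 5.84 to 6.02 in activated cells and 5.69 to 11.02 in lymphomas. Csf1r, the macrophage growth factor receptor, was not called (3.52 ± 1.27, adjusted p = 0.0644). At an unadjusted p under 0.05 in limma, 10 of 16 macrophage and 8 of 13 neutrophil markers were higher and 0 lower. The macrophage list had 1 to 7 higher calls without 1 lymphoma, 0 without 1 activated sample and 0 without those 5 lymphomas. Of 18 B cell markers, 6 dendritic, 7 erythroid and 3 hepatocyte markers 0 were called in limma, and 0, 0, 0 and 1 had an unadjusted p under 0.05. Alb, albumin, read 11.22 in mPTCL 8, the highest of the lymphomas (0.44 ± 1.00, adjusted p = 0.784). Stromal and endothelial markers fell in 4 of 11 and platelet markers in 1 of 5, among them Pecam1, which T cells also express (11.31, 11.24 and 11.44 in the 3 activated samples and from 5.62 to 10.27 (median 7.68) in the lymphomas; -3.41 ± 0.77, adjusted p = 0.009), and Itgb3. The other stromal markers that fell were Col3a1 (-2.34), Sparc (-2.04) and Col1a2 (-1.61). Their adjusted p without 1 activated sample was 0.055 to 0.161 for Col3a1, 0.0455 to 0.157 for Sparc and 0.0778 to 0.178 for Col1a2. The calls also ended for Col3a1 and Sparc without mPTCL 1, 2, 6 or 8, and for Col1a2 without any single lymphoma other than mPTCL 4. Col1a2 was -0.80 (adjusted p = 0.107) with the mean of its probe sets. Mast cell markers fell in 2 of 5, Ms4a2 (-1.82 ± 0.38, adjusted p = 0.00615) and Gata2 (-1.17 ± 0.34, adjusted p = 0.0303). Gata2 lost its call whichever activated sample was left out (0.0643 to 0.153 for Gata2). The part of other cells in the results was not tested beyond the values without the named lymphomas.

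Beyond the lists, the largest changes with no overlap between groups included other genes. Sulf2, an extracellular sulfatase, was at the floor in the 3 activated samples and read from 5.83 to 11.35 (median 10.22) in lymphomas, at least 27.8-fold higher (4.80 ± 0.99, adjusted p = 0.00591; 2.81 (adjusted p = 0.0124) with the mean of its probe sets). Cela1, an elastase, was 14.7-fold higher (3.88 ± 0.77, adjusted p = 0.00481), Rgs2, a regulator of G protein signals, 11.97-fold higher (8.90, 8.60 and 9.60 in the 3 activated samples and from 9.73 to 13.95 (median 12.72) in the lymphomas; 3.58 ± 0.69, adjusted p = 0.00404), and Naip5, an inflammasome sensor of flagellin, 10.2-fold higher (5.62, 5.46 and 7.70 in the 3 activated samples and from 7.99 to 10.91 (median 10.08) in the lymphomas; 3.35 ± 0.67, adjusted p = 0.00496). Among decreases, Ctla2a, a cathepsin inhibitor of activated T cells, read 13.13, 13.32 and 13.06 in the 3 activated samples and from 5.29 to 11.32 (median 6.93) in the lymphomas and was 52.1-fold lower (-5.70 ± 1.14, adjusted p = 0.00474). Pde4d, a cyclic AMP phosphodiesterase, was at least 39.6-fold lower (-5.31 ± 0.81, adjusted p = 0.00124; -2.65 (adjusted p = 0.00166) with the mean of its probe sets), and Kcna2, a potassium channel, at least 36.4-fold lower (-5.19 ± 0.47, adjusted p = 4.95e-05; -3.14 (adjusted p = 1.56e-06)). Slc6a19, an amino acid transporter, was at least 32.6-fold lower (10.80, 10.38 and 10.24 in the 3 activated samples and from 5.00 to 5.97 (median 5.41) in the lymphomas; -5.03 ± 0.29, adjusted p = 1.13e-06), Mgarp, a mitochondrial protein, at least 33.04-fold lower (-5.05 ± 0.43, adjusted p = 3.76e-05) and Rgs11, another regulator of G protein signals, 29.2-fold lower (-4.87 ± 0.46, adjusted p = 6.79e-05). Each of these kept its call whichever single array was left out.

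In the fits named next, called genes kept their calls but their differences changed by more than 1.5 times on the linear scale. With the mean of probe sets in place of the brightest one the differences were -3.44 for Il6st, -3.87 for Tmie, -4.32 for Slc6a19, -3.71 for Inpp4b, -3.27 for Itgb3, -2.79 for Traf1, -2.57 for Kdm5b, -2.13 for Ak4, -1.78 for Zbtb7b and -1.22 for Ms4a2 among genes that fell, and 3.91 for Lyz1, 2.98 for Klf4 and 2.70 for Jun among genes that rose. Without mPTCL 1, 2, 4, 5 and 8, the lymphomas with high neutrophil markers, the differences of Ccr7, Ctla4 and Il6st were larger, at -7.49 for Ccr7, -6.12 for Ctla4 and -5.12 for Il6st. Those of Igtp, Themis, Plcg2 and Anxa1 were smaller, at -2.04 for Igtp, -2.44 for Themis, 2.76 for Plcg2 and 2.09 for Anxa1. Without mPTCL 1, 4 and 5, where B cell markers were high, decreases were larger for Ccr7, at -7.34, and Ctla4, at -6.04. They were also larger for Il6ra (from -2.94 to -3.94), Bcl2l2 (from -2.53 to -3.43) and Fas (from -2.62 to -3.28). The increases of 8 myeloid and immediate early genes were smaller in that fit, at 5.70 for Chil3, 5.88 for Fos, 4.92 for Lyz1, 4.80 for S100a9, 4.61 for S100a8, 3.21 for Fosb, 3.14 for Klf4 and 2.47 for Anxa1.

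The lymphomas did not form a single pattern. The SD of the list mean across lymphomas was largest for the neutrophil and B cell markers, and it was 0.890 for the CD3 complex and coreceptors against 0.0616 among activated samples. mPTCL 3 and 4 were set apart by low Cd3e and high Notch1, mPTCL 1, 4 and 5 by B cell markers, and mPTCL 2, 6 and 8 by high Klrk1. Of 163 called genes that the text or its tables name, 81 kept the call whichever single array was left out, 132 whichever single lymphoma was left out, 122 without mPTCL 1, 2, 4, 5 and 8, 154 without mPTCL 1, 4 and 5 and 153 without mPTCL 3 and 4.

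**Figure D5:**
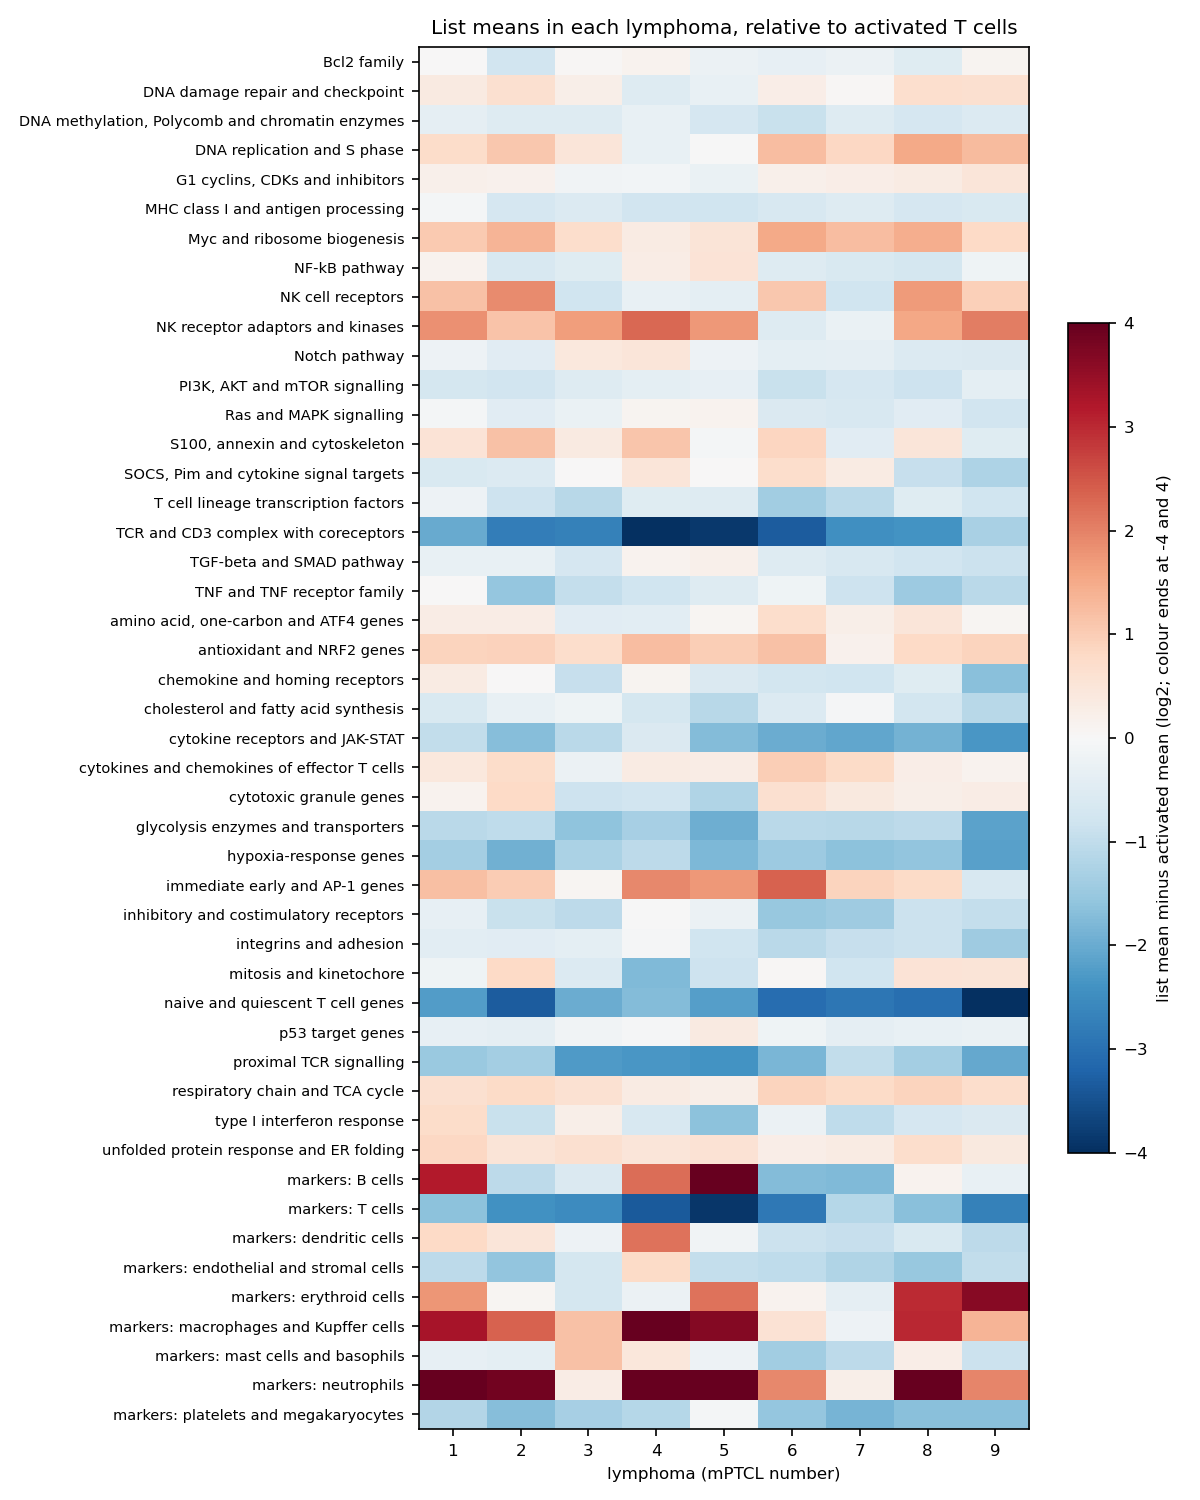
Mean of each gene list in each lymphoma minus its mean over the 3 activated samples (log2, blue lower and red higher, colour ends at -4 and 4), with lists in rows and mPTCL numbers in columns. Hypoxia and naive T cell lists are lower in all 9 columns, whereas the neutrophil row is high in mPTCL 1, 2, 4, 5 and 8 and the B cell row in mPTCL 1, 4 and 5.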

How the data were processed

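MAS5 in Affymetrix Expression Console was the authors' software, per the labels (version 1.1 for the lymphomas), and it gave the deposited linear intensity. RNA was extracted with a column kit, per the labels' protocols. Signals were floored at 32 and log2 was taken. Probe sets were named by the platform annotation: 34958 had 1 symbol, 932 several and 9211 none, and 64 were controls. Each of 18193 genes was represented by the probe set with the highest mean over the 15 arrays, and 11902 genes that reached 100 on 3 or more arrays were tested.

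The 9 lymphomas and 3 activated arrays were fitted with limma 3.58.1 in R 4.3.3 (lmFit, eBayes with a trend), tested on simulated data with known changes. A fold change is a lower bound where 1 group has arrays at the floor and the other none. List means were taken over all members on the array, tested or not. Genes were named by rule: the 15 largest increases and decreases among called genes without overlap, up to 6 called members per list and a fixed set, and other named members were picked after their values were seen. The members, comparisons, 48 gene lists (1042 genes on the array) and alternatives were chosen with earlier results of these data known. The deleted p53 gene is not analysed here. Promoter windows are RefSeq's (GRCm38.p6). The alternatives were other floors, filters, normalisations, probe set rules, fits, thresholds, and leaving out arrays.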

Additional observations from a re-analysis of the deposited data

Results flagged for a closer look

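In 18 of 242 sets of 9 lymphoma values or list means, 1 lymphoma stood apart from the others by Dixon's criterion, which chance meets in about 1 of 20 sets. In mPTCL 4, Col1a2 (8.98), Col3a1 (8.73) and the mean of stromal and endothelial markers (8.00) were the highest and Chek1 (9.13) the lowest. In mPTCL 5, Fas (9.59), the mean of p53 target genes (9.26) and the mean of platelet markers (7.80) were the highest, and Cd247 (7.01), Gzma (10.45) and Lfng (8.43) the lowest. In mPTCL 8, Alb (11.22) and the mean of hepatocyte markers (8.04) were the highest. In mPTCL 9, Egln3 (5.00) and Gpr132 (5.49) were the lowest. In mPTCL 3, Kcna2 (7.41) was the highest and Traf1 (5.00) the lowest. Tdrp (6.44) was the highest in mPTCL 6 and the mean of class I presentation genes (13.11) the highest in mPTCL 1. The cause was not tested.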

How the results depend on the processing

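The count of called genes was 1824 (838 higher, 986 lower), and under 12 other floors, filters, normalisations, probe set rules and fits it ran from 1682 to 2169. It was 2447 with the adjusted p alone and 462 (124 higher, 338 lower) at 4-fold. With array weights per group it was 2946 (1303 higher, 1643 lower). Averaging the probe sets of each gene gave 573 higher and 1125 lower calls. In no setting did a called gene turn to a call in the opposite direction. Leaving out 1 array gave 916 to 2167 called genes (463 to 999 higher, 437 to 1168 lower), with the lowest counts, 916, 928 and 926, for activated samples 1, 2 and 3. After the data were seen, the fit was repeated without mPTCL 1, 2, 4, 5 and 8, which gave 1950 calls (960 higher, 990 lower), without mPTCL 1, 4 and 5, which gave 2586 (1180 higher, 1406 lower), and without mPTCL 3 and 4, which gave 2372 (1097 higher, 1275 lower).

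Activated samples and lymphomas share the numbers 1 to 3, but correlations of the deviations of same-numbered samples were -0.039, -0.017 and 0.014, so they share only a number. With a replicate block 1064 genes were called (611 higher, 453 lower). Only numbers 1 to 3 occur in both groups, so the differences in that fit rest on mPTCL 1 to 3 and the activated samples alone.

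Among named genes, 10 that changed sign in an alternative were not called there. Notch4 (-1.21) and Mapk14 (1.02) were called with the brightest probe set and are counted in their lists. With the mean of probe sets the differences were 0.128 for Notch4, -0.078 for Mapk14 and -0.154 for Prf1. Without 1 activated sample the adjusted p reached 0.123 for Notch4 and 0.0592 for Mapk14. With the replicate block they were -0.242 for Prf1, -0.143 for Tnfrsf9, -0.872 for Cish and -0.334 for Alb. Without activated sample 1 they were -0.144 for Prf1 and -0.204 for Tnfrsf9. Leaving out mPTCL 2 gave -0.173 for Prf1 and -0.036 for Bhlhe40, mPTCL 4 -0.012 for Cish, mPTCL 6 -0.143 and mPTCL 7 -0.247 for Cish, mPTCL 8 -0.090 for Prf1 and -0.131 for Alb, and mPTCL 9 -0.265 for Prf1 and -0.286 for Tnfrsf9. Without mPTCL 1, 2, 4, 5 and 8 the differences were 0.721 for Gzmb, -0.018 for Prf1, -0.288 for Bhlhe40 and -0.292 for Alb. Without mPTCL 1, 4 and 5 they were 0.558 for Gzmb and 0.0021 for Tbx21, and without mPTCL 3 and 4 -0.029 for Tnfrsf9, 0.206 for Eomes and -0.177 for Cish. Leaving out 1 array gave highest values of 0.253 for Prf1, 0.464 for Tnfrsf9, 0.349 for Bhlhe40, 0.439 for Cish and 0.654 for Alb. The cause was not tested. Of the other comparisons of named genes and lists, 7845 kept direction and side of the threshold, 622 lost the call, 32 gained it and 457 moved. Signal near the floor limits what the lowest genes can show.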

Other observations

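The 3 resting arrays, which entered no test here, give the level of the same lists in cells that were not stimulated. The mean of hypoxia-response genes was 8.31 to 8.45 in resting cells, 8.17 to 9.28 in lymphomas and 10.15 to 10.48 in activated cells. For glycolysis the order was 9.76 to 9.85, 9.74 to 10.85 and 11.78 to 12.02. For naive T cell genes it was 12.52 to 12.56, 8.07 to 10.38 and 11.98 to 12.29. The mean of the Myc and ribosome biogenesis list was 10.88 to 10.91 in resting cells, 10.52 to 11.72 in lymphomas and 10.19 to 10.22 in activated cells. The mean of mitotic genes was 7.61 to 7.93 in resting cells, 9.23 to 11.79 in lymphomas and 10.94 to 11.09 in activated cells. For immediate early genes it was 9.45 to 10.02 in resting cells, 8.38 to 11.38 in lymphomas and 8.92 to 9.19 in activated cells. Cdkn2a, whose products restrain the cell cycle, read 5.00, 5.00 and 5.87 in the 3 activated samples and from 5.00 to 10.48 (median 8.76) in the lymphomas, at the floor in mPTCL 3 and 4, and was not called (2.75 ± 1.22, adjusted p = 0.125); it was picked out after its values were seen.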
